A study of Mus musculus with 10 samples.

Results

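Imprinted genes are transcribed mainly from the allele inherited from the mother or mainly from the allele inherited from the father. The 44 mouse imprinted genes described here were taken as a list of symbols and found by Ensembl identifier among the 54838 gene identifiers of the count files. By general knowledge of mouse imprinting, 25 of them are expressed from the paternal allele, 16 from the maternal allele, and 3 (Gnas, Ddc and Inpp5f) from either, depending on transcript or tissue. Grb10, paternal in neurons and maternal in most other tissues, was counted as paternal. The list holds 36 protein-coding and 8 noncoding genes. The counts were not split by parental allele, so every value below is the sum of both alleles, and the allele given for a gene is background and not a measurement.

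The libraries came from translating ribosome affinity purification (TRAP), in which tagged ribosomes are pulled down from tissue with the RNA bound to them. All mice were C57BL/6 males of about 10 weeks with the genotype MC-TRAP, in which Drd2-Cre switches on an EGFP-tagged ribosomal protein L10a from 1 copy of the Eef1a1 locus in hilar mossy cells, the excitatory neurons of the dentate hilus. Hippocampi were divided into a dorsal part (the Dorsal group, 5 libraries) and a ventral part with the ventral subiculum trimmed away (the Ventral group, 5 libraries). Every library was made from the pooled tissue of 5 mice. The paper describes dividing the hippocampi of the same mice into both parts, so the groups share animals and are not independent sets of mice. The labels do not say which dorsal and ventral libraries come from the same mice. The comparison asks which translated RNAs differ between mossy cell-enriched populations along the long axis of the hippocampus, and Drd2-Cre is also active in sparse hippocampal interneurons and in neurons of the ventral subiculum.

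Imprinted genes lie in clusters, and each cluster is controlled by a stretch of DNA whose methylation was set in the egg or the sperm. Many clusters pair protein-coding genes of one parental origin with long noncoding RNAs of the other, and some hold retrogenes that sit inside an intron of a host gene. The brain is a main site of imprinted expression, where these genes act in growth, feeding, maternal care and synapse function.

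Counts on genes ranged from 11138676 to 20594364 per library, and 3 counts corresponded to 0.142 to 0.282 CPM, the unit of counts scaled to library size with TMM factors. Read pairs outside all annotated genes made up 27.0 ± 5.09% in Dorsal and 14.4 ± 3.0% in Ventral (SD, n = 5). The groups did not overlap, and the two-sided exact permutation p of 0.00794 is the smallest that 5 against 5 allows. Drd2 was present in every library (17.6 to 31.8 CPM). The 11 mossy cell markers summed to 2118 to 2421 CPM in Dorsal and 2212 to 2512 CPM in Ventral, with 3 dorsal-enriched and 3 ventral-enriched among 10 tested. These sums combine opposite changes and are not a measure of mossy cell content. Gria2 had a mean of 1143 CPM in Dorsal and 651 CPM in Ventral, and Calb2 65.2 and 616 CPM. The 8 nuclear long noncoding RNAs, which include Malat1, summed to 11672 to 24576 CPM in Dorsal and 2230 to 4412 CPM in Ventral, with 7 of 8 dorsal-enriched. Markers of oligodendrocytes (2634 to 3090 against 962 to 1873 CPM, 5 of 9 dorsal-enriched) and astrocytes (1985 to 2263 against 872 to 1459 CPM, 5 of 9 dorsal-enriched and 1 ventral-enriched) were also higher in the dorsal precipitates. Interneuron markers summed to 3983 to 5382 CPM in Dorsal and 4916 to 6317 CPM in Ventral (1 of 12 dorsal-enriched, 3 ventral-enriched). Most of that sum was Gad2, at 2390 to 3604 CPM. No marker of these 5 lists was at 0 in all libraries. Beside these counts, 15.7% of all genes tested were dorsal-enriched and 9.85% ventral-enriched, and 31.2% of all long noncoding genes were dorsal-enriched. The part of these cell types and of nuclear RNA in the results below was not tested, and in precipitates of this kind fewer cells of a type and less RNA per cell cannot be told apart.

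Imprinted genes were detected broadly. Of the 44 genes, 40 passed the filter of CPM above 1 in at least 2 libraries, and together the 44 took 0.589 to 0.751% of the counts on genes. Enrichment was called where edgeR's adjusted p was below 0.05 and the group means of CPM, with 1 added, differed by more than 0.58 on the log2 scale. The 4 dorsal-enriched genes were Meg3, Rtl1, Snhg14 and Kcnq1ot1 (10% of the 40, where 15.7% of all genes tested were dorsal-enriched). Of these, Rtl1 passed the filter through its dorsal libraries alone. The 6 ventral-enriched genes were Nnat, Nap1l5, Impact, Ndn, Grb10 and Zim1 (15%, where 9.85% of all genes tested were ventral-enriched). Called in either direction were 10 of 40, or 25%, a share near the 25.5% of all 16806 genes tested. The median log2 fold change, dorsal over ventral, was 0.095 over the 40 genes and -0.0044 over all genes tested.

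All 3 called noncoding genes were dorsal-enriched (3 of 7 tested, 42.9%, where 31.2% of all long noncoding genes were dorsal-enriched and 10.1% ventral-enriched). Of the 33 coding genes tested, Rtl1 alone was dorsal-enriched (3.03%, where 11.4% of all protein-coding genes were) and 6 were ventral-enriched (18.2%, where 10.3% were). The median log2 fold change was 0.63 for the 7 noncoding and 0.020 for the 33 coding genes, beside 0.46 for all long noncoding and -0.041 for all protein-coding genes tested. By allele, the paternally expressed genes gave 3 dorsal calls (13%) and 5 ventral calls (21.7%) among 23 tested, beside 15.7% and 9.85% of all genes. The maternally expressed genes gave 1 dorsal call (Meg3) and 1 ventral call (Zim1) among 14, or 7.14% each. The libraries of the groups did not overlap for 7 of the 40 genes (17.5%, where 18.2% of all genes tested did not overlap). These were Rtl1, Zdbf2 and H13 on the dorsal side (9.81% of all genes) and Nnat, Nap1l5, Ndn and Zim1 on the ventral side (8.36% of all genes). An adjusted p below 0.05, whatever the fold, was reached by 13 of the 40, beside 33.6% of all genes tested, and the 3 that missed the fold threshold were Zrsr1, H13 and Zdbf2.

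**Figure D1:**
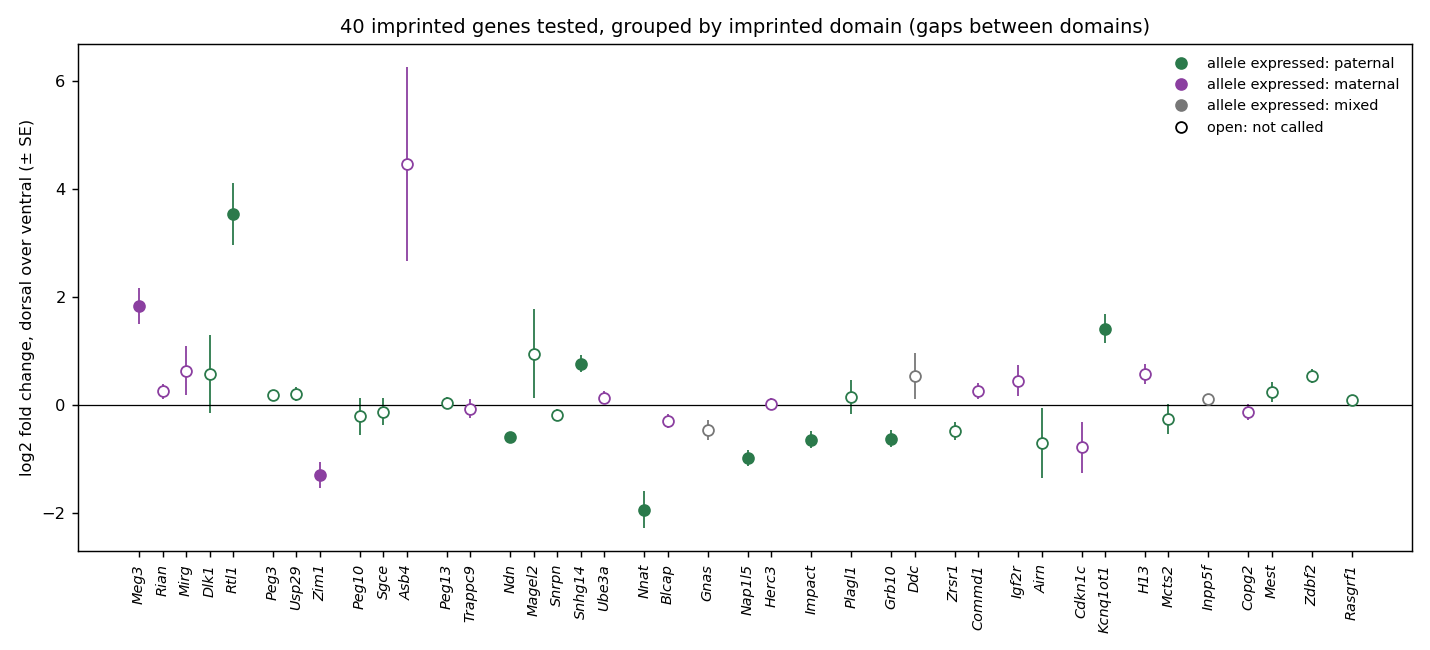
Log2 fold change, dorsal over ventral, with its standard error, for the 40 imprinted genes tested, ordered by imprinted domain on the horizontal axis with a gap between domains. Colour gives the allele that is known to be expressed and filled symbols are called genes: Meg3, Rtl1, Snhg14 and Kcnq1ot1 lie above 0 and the 6 ventral-enriched genes lie below 0, while the wide bar of Asb4 stands on 1 count in all 5 ventral libraries.

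Per kb of exon, the highest mean over all 10 libraries was that of Nap1l5 at 689 CPM per kb, followed by Snrpn at 226, Impact at 78.1, Nnat at 65.7, Meg3 at 63.1 and Ndn at 48.9 CPM per kb. By mean CPM, Nap1l5 ranked 59 and Meg3 72 among all 16806 genes tested. The filter on low values left out 4 genes. Igf2, the fetal growth factor, ran from 0 to 0.780 CPM, its noncoding neighbour H19 from 0 to 0.675 CPM, and Calcr, the calcitonin receptor, from 0 to 0.455 CPM. Snurf was listed at 0 in all libraries, but its only annotated exonic sequence is shared entirely with Snrpn, so reads from it would not be counted as Snurf.

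**Figure D2:**
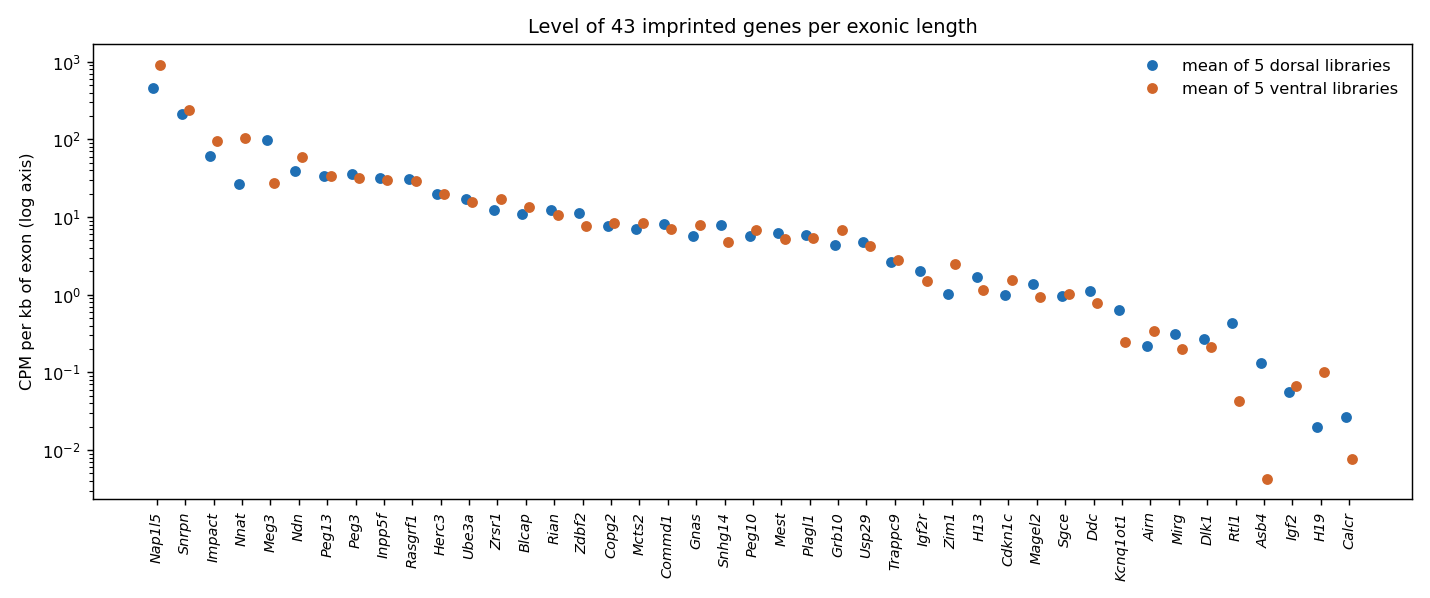
Mean level of 43 imprinted genes in CPM per kb of exonic length (log axis), separately for the 5 dorsal and the 5 ventral libraries, in order of the overall mean. Nap1l5 and Snrpn are highest, and Igf2, H19 and Calcr stand at the low end. Snurf, at 0 in all libraries, is not drawn.

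The Dlk1-Meg3 domain on chromosome 12 held the largest dorsal differences among the called genes. The domain pairs paternally expressed coding genes (Dlk1, Rtl1) with maternally expressed noncoding RNAs (Meg3, Rian, Mirg) that carry many small RNAs. Meg3 (ENSMUSG00000021268, GRCm38 chr12:109541001-109571726, forward strand) is a long noncoding RNA that is known to be retained mostly in the nucleus. It measured 862, 2749, 2044, 1467 and 1784 CPM in the dorsal libraries and 216, 405, 889.8, 400.4 and 592 CPM in the ventral libraries. All dorsal libraries but replicate 1 stood above all ventral ones, while dorsal replicate 1 was just under ventral replicate 3, so the groups overlapped. The means were 1781 ± 698 against 501 ± 255 CPM, a 3.57-fold difference (log2 fold change 1.83 ± 0.33 (SE), adjusted p = 0.00133). Rian and Mirg, which lie downstream of Meg3 on the same strand, were not called. Rian measured 231, 289, 214, 195 and 209 CPM in the dorsal libraries and 177, 149, 254, 173 and 205 CPM in the ventral libraries (log2 fold change 0.25 ± 0.15 (SE), adjusted p = 0.203). Mirg was near the detection limit at 0.555 to 3.30 CPM over the 10 libraries (log2 fold change 0.63 ± 0.45 (SE), adjusted p = 0.291). Within libraries, the log2 ratio of Meg3 to Rian was 2.88 ± 0.57 in Dorsal and 1.25 ± 0.58 in Ventral (SD, n = 5), with no overlap, and that of Meg3 to Mirg was 9.08 ± 0.56 and 7.56 ± 0.40, also with no overlap. The ratio of Rian to Mirg overlapped between the groups (6.20 ± 0.70 and 6.31 ± 0.33).

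Rtl1 (ENSMUSG00000085925, GRCm38 chr12:109589193-109600330, reverse strand), a retrotransposon-derived coding gene known for its role in the placenta, showed the largest fold change among the called genes at a low level. It had 21, 52, 37, 49 and 35 counts in the dorsal libraries and 0, 9, 3, 1 and 5 counts in the ventral libraries. These are 1.98, 3.38, 2.52, 2.94 and 2.75 CPM in the dorsal libraries and 0, 0.792, 0.253, 0.0633 and 0.236 CPM in the ventral libraries. All dorsal libraries were above all ventral libraries, of which 3 were at or below 3 counts (log2 fold change 3.54 ± 0.58 (SE), adjusted p = 2.53e-04, an 11.6-fold difference). Rtl1 passed the filter through its dorsal libraries alone, since no ventral library reached 1 CPM. Its call, fold change and lack of overlap are therefore a description and not separate support for a dorsal difference. The size of the Rtl1 difference rested in part on ventral replicate 2, without which the log2 fold change was 4.28, and the other leave-one-out fits gave 3.17 to 3.62. Rtl1 lies opposite a maternally expressed antisense transcript that is the precursor of several microRNAs, 8.40% of its exonic bases overlap annotated genes, and the kits used do not mark strand, so that reads of Rtl1 and of the antisense transcript cannot be told apart. Dlk1, a transmembrane regulator of growth and differentiation, measured 1.69, 2.79, 0.341, 1.38 and 1.34 CPM in the dorsal libraries and 0.444, 4.05, 0.0844, 0.949 and 0.425 CPM in the ventral libraries and was not called (log2 fold change 0.57 ± 0.72 (SE), adjusted p = 0.569). Ventral replicate 2 was the highest of all 10 libraries for Dlk1 and was far above the other 4 ventral ones. Leaving out a library gave a log2 fold change of 0.18 to 1.60 for Dlk1, the highest without ventral replicate 2 (adjusted p = 0.0563). Dio3, the thyroid hormone-inactivating deiodinase at the far end of the domain and outside the list of 44, was ventral-enriched at a level around 1 CPM (0.124 ± 0.115 against 1.07 ± 0.632 CPM, log2 fold change -2.95 ± 0.80 (SE), adjusted p = 0.0103). It passed the filter through its ventral libraries alone.

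The microRNA hairpins of RefSeq (GRCm38.p6) show what lies across Rtl1. Its gene body spans 7 annotated hairpins, 6 of them on the opposite strand, while Mirg spans 14, Rian 3 and Meg3 1. The microRNAs themselves were not measured in these libraries. A mature sequence of each of the 6 opposite-strand hairpins is given 5′ to 3′ with the seed, bases 2 to 8, in capitals. These hairpins lie inside the Rtl1 gene body, and where along Rtl1 its counts fell was not examined.
mmu-miR-431-3p: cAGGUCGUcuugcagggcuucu
mmu-miR-433-3p: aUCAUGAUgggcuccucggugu
mmu-miR-127-3p: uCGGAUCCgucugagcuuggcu
mmu-miR-434-3p: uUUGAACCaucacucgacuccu
mmu-miR-432: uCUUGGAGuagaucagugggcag
mmu-miR-136-3p: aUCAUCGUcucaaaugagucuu
No pair of these 6 shares a seed.

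**Figure D3:**
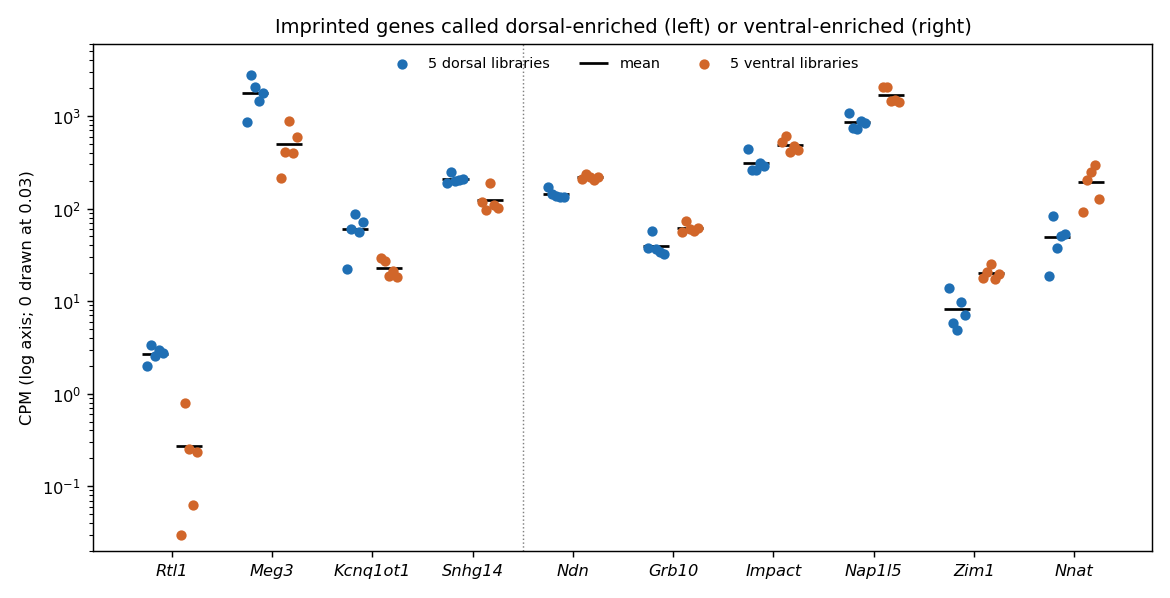
Level in CPM (log axis) of the 10 called imprinted genes in each library, with the group mean as a line. The 4 dorsal-enriched genes are on the left and the 6 ventral-enriched genes on the right, and the libraries do not overlap between groups for Rtl1, Ndn, Nap1l5, Zim1 and Nnat. The ventral library with 0 counts of Rtl1 is drawn at 0.03 CPM.

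In the Snrpn-Ube3a domain of chromosome 7, whose human counterpart is the Prader-Willi and Angelman syndrome region, the noncoding Snhg14 was higher in Dorsal and the coding gene Ndn was higher in Ventral. Snhg14 (ENSMUSG00000100826, GRCm38 chr7:59307924-59975759, reverse strand) is the paternal host transcript of clustered small nucleolar RNAs, and its far end runs antisense to Ube3a. It measured 189, 249.7, 196, 202 and 207 CPM in the dorsal libraries and 119, 95.9, 190.3, 110.1 and 103 CPM in the ventral libraries. Ventral replicate 3 lay within the dorsal range, and the other 4 ventral libraries lay below it (log2 fold change 0.76 ± 0.17 (SE), adjusted p = 0.00380, a 1.70-fold difference). Ventral replicate 3 also had the highest share of read pairs on no gene in its group (19.3%). Correction for GC content and exonic length turned the direction of Snhg14 (log2 fold change -0.45, adjusted p = 0.0335), which had 26093 bases of exon in the annotation.

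Ube3a, the E3 ubiquitin ligase that neurons express from the maternal allele, measured 387, 356, 285, 391 and 353 CPM in the dorsal libraries and 368, 343, 359, 303 and 253 CPM in the ventral libraries and was not called (log2 fold change 0.13 ± 0.12 (SE), adjusted p = 0.441). The same correction also turned the sign of Ube3a, to -0.53 with an adjusted p of 0.00279, and that of Rian, to -0.50 with an adjusted p of 0.00874. Snhg14, Rian and Ube3a were under the fold threshold in that fit. Annotated genes on the other strand, Snhg14 among them, share 27.3% of its exonic bases. Snrpn, which encodes a spliceosomal protein of neurons, was among the highest imprinted genes and measured 526, 463, 426, 436 and 429.6 CPM in the dorsal libraries and 573, 590.0, 420.1, 499 and 519 CPM in the ventral libraries, with overlapping groups (log2 fold change -0.19 ± 0.10 (SE), adjusted p = 0.173). The log2 ratio of Snhg14 to Ube3a within libraries was -0.76 ± 0.24 in Dorsal and -1.42 ± 0.35 in Ventral, and these ratios overlapped.

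The other coding genes of the domain were the MAGE family members Ndn (necdin) and Magel2. Ndn (ENSMUSG00000033585, GRCm38 chr7:62346569-62350262, forward strand) measured 172, 143, 137, 134 and 134 CPM in the dorsal libraries and 208, 235, 220.0, 204 and 218 CPM in the ventral libraries. All ventral libraries were above all dorsal libraries, a 1.51-fold difference (log2 fold change -0.60 ± 0.099 (SE), adjusted p = 7.09e-04). Its log2 ratio of -0.59 sat at the edge of the 0.58 threshold, and the call was lost with DESeq2 size factors, upper-quartile factors, the stricter filter and in 4 of 10 leave-one-out fits, with the adjusted p still below 0.05 in each. Magel2 was variable, with 1.88, 14.0, 5.66, 3.30 and 6.99 CPM in the dorsal libraries and 0.277, 18.8, 1.27, 0.506 and 0.755 CPM in the ventral libraries. Ventral replicate 2 was above all dorsal libraries and the other 4 ventral ones were below them, and Magel2 was not called (log2 fold change 0.95 ± 0.83 (SE), adjusted p = 0.397). Without ventral replicate 2 its log2 fold change was 3.30 with an adjusted p of 0.00292.

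Kcnq1ot1 (ENSMUSG00000101609, GRCm38 chr7:143203458-143296549, reverse strand), the paternally expressed noncoding RNA that silences its neighbours in cis, is annotated as a long transcript of 93092 exonic bases inside Kcnq1 on the opposite strand. It measured 22.5, 60.4, 86.5, 56.1 and 72.2 CPM in the dorsal libraries and 29.0, 26.9, 18.6, 21.0 and 18.2 CPM in the ventral libraries. Dorsal replicates 2 to 5 were above all ventral libraries, and dorsal replicate 1 lay within the ventral range (log2 fold change 1.41 ± 0.27 (SE), adjusted p = 0.00187, a 2.66-fold difference). With the replicate block and the GC and length correction together the call was lost (log2 fold change 0.73, adjusted p = 0.0821). Reads of Kcnq1 introns would be counted in it where strand is not used, and Kcnq1 itself was near 0 (0.234 ± 0.299 against 0.0287 ± 0.0410 CPM). Cdkn1c, the cell cycle inhibitor of the same domain, measured 4.70, 2.08, 0.273, 1.92 and 1.18 CPM in the dorsal libraries and 5.05, 1.67, 2.11, 3.35 and 3.40 CPM in the ventral libraries and was not called (log2 fold change -0.79 ± 0.48 (SE), adjusted p = 0.213).

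Within the groups, the noncoding imprinted RNAs did not follow the share of read pairs on no gene in the same way. Dorsal replicate 1 had the lowest share in its group (21.8%) and the lowest Meg3, Kcnq1ot1 and Snhg14 there. Dorsal replicate 3 had the highest share (33.9%) and the highest Kcnq1ot1, while Meg3 and Snhg14 were highest in dorsal replicate 2 (29.1%). Among ventral libraries, replicate 3 had the highest share (19.3%) and the highest Meg3 and Snhg14. Kcnq1ot1 ran the other way there, with its highest level in ventral replicate 1, which had the lowest share (11.6%). Peg13 measured 164, 149.8, 171, 165 and 157 CPM in the dorsal libraries and 171, 178, 121, 153 and 165 CPM in the ventral libraries (log2 fold change 0.032 ± 0.11 (SE), adjusted p = 0.847), and Airn, the antisense RNA of the Igf2r domain, was at 0.0844 to 2.44 CPM (log2 fold change -0.71 ± 0.66 (SE), adjusted p = 0.423). With the share as a covariate, 1 dorsal call (Rtl1) and 1 ventral call (Nnat) were left, and Meg3 had a log2 fold change of 0.37 (adjusted p = 0.680). Because the share does not overlap between the groups, its part and that of the hippocampal region cannot be told apart in this fit.

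**Figure D4:**
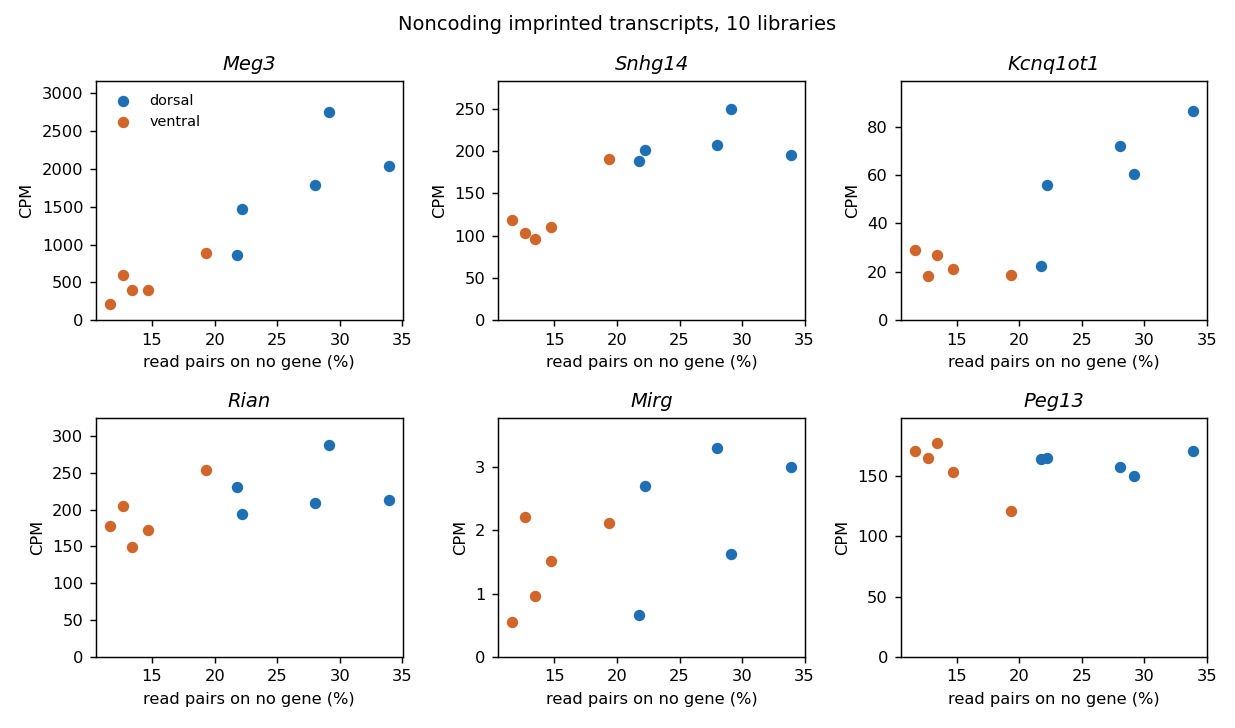
Level in CPM of 6 noncoding imprinted RNAs against the percentage of read pairs on no annotated gene, a point for each of the 10 libraries. The dorsal libraries lie at 21.8 to 33.9% and the ventral ones at 11.6 to 19.3% in every panel. Meg3, Snhg14 and Kcnq1ot1 are higher in most dorsal libraries, and the levels of Rian, Mirg and Peg13 overlap between the groups.

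For 5 pairs of a paternally expressed gene and the imprinted host gene around it, both were on the list. In 3 of the 5 the ratio of nested gene to host did not overlap between the groups. The share of other gene pairs whose ratio does not overlap was not computed, so this count has no background beside it. Of the nested genes, Nap1l5 and Nnat did not overlap on their own either, as was true of 18.2% of all genes tested. Nap1l5 (ENSMUSG00000055430, GRCm38 chr6:58905233-58907076, reverse strand), a nucleosome assembly protein family member that sits in an intron of Herc3, had the highest mean CPM of the 44 genes. It measured 1090, 750.0, 715, 882 and 832 CPM in the dorsal libraries and 2045, 2076, 1437, 1477 and 1401 CPM in the ventral libraries. Every ventral library was above every dorsal library, a 1.98-fold difference (log2 fold change -0.98 ± 0.14 (SE), adjusted p = 3.15e-04). Its host Herc3, a HECT-type ubiquitin ligase, measured 187, 174, 173, 196 and 183 CPM in the dorsal libraries and 191, 218, 164, 173 and 155 CPM in the ventral libraries, without a call (log2 fold change 0.02 ± 0.11 (SE), adjusted p = 0.901). The log2 ratio of Nap1l5 to Herc3 was 2.21 ± 0.19 in Dorsal and 3.21 ± 0.13 in Ventral, with no overlap.

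Nnat (ENSMUSG00000067786, GRCm38 chr2:157560078-157562522, forward strand) encodes neuronatin, a small membrane protein of the endoplasmic reticulum, and lies in an intron of Blcap. It measured 18.7, 83.7, 37.7, 50.4 and 53.1 CPM in the dorsal libraries and 91.9, 202, 246, 292 and 126 CPM in the ventral libraries. The ventral libraries were all higher than the dorsal ones, and the spread within each group was wide (log2 fold change -1.94 ± 0.34 (SE), adjusted p = 0.00109, a 3.85-fold difference). Nnat and Rtl1 kept their call in every alternative that was run, though Rtl1 passed the main filter through its dorsal libraries alone. Blcap, a small membrane protein, measured 26.9, 38.7, 36.7, 28.8 and 34.2 CPM in the dorsal libraries and 40, 45.9, 37.9, 41.2 and 39.6 CPM in the ventral libraries and was not called (log2 fold change -0.30 ± 0.13 (SE), adjusted p = 0.0953). The log2 ratio of Nnat to Blcap was 0.41 ± 0.64 in Dorsal and 2.08 ± 0.68 in Ventral, with no overlap.

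Zrsr1, a retrogene for a splicing factor inside Commd1, measured 71.5, 62.6, 38.2, 54.5 and 48.6 CPM in the dorsal libraries and 98.0, 71.3, 62.6, 69.7 and 78.7 CPM in the ventral libraries. It had an adjusted p below 0.05 and missed the fold threshold (log2 fold change -0.48 ± 0.17 (SE), adjusted p = 0.0391). Commd1, which acts in copper handling and endosomal trafficking, measured 56.1, 48.9, 40.5, 48.8 and 50.4 CPM in the dorsal libraries and 53.3, 42.4, 42.0, 35.4 and 32.0 CPM in the ventral libraries (log2 fold change 0.25 ± 0.15 (SE), adjusted p = 0.209). Neither gene was called, and yet their log2 ratio of 0.14 ± 0.21 in Dorsal and 0.88 ± 0.27 in Ventral did not overlap. The 2 genes share 9.17% of the exonic bases of Zrsr1 on opposite strands.

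Mcts2, a retrogene for a translation factor inside H13, measured 4.52, 6.95, 9.47, 4.80 and 6.36 CPM in the dorsal libraries and 10.5, 8.63, 3.88, 7.78 and 7.51 CPM in the ventral libraries (log2 fold change -0.27 ± 0.28 (SE), adjusted p = 0.481). H13, the signal peptide peptidase, measured 14.1, 14.4, 18.5, 14.5 and 13.4 CPM in the dorsal libraries and 8.43, 12.3, 8.95, 8.86 and 11.9 CPM in the ventral libraries. Its groups did not overlap, and its log2 ratio of 0.53 missed the threshold (log2 fold change 0.58 ± 0.18 (SE), adjusted p = 0.0277). The ratio of Mcts2 to H13 overlapped, as did that of the noncoding Peg13 to its host Trappc9. Trappc9, a trafficking complex subunit, measured 15.9, 29.0, 22.2, 17.4 and 20.7 CPM in the dorsal libraries and 19.8, 25.1, 18.6, 21.4 and 26.1 CPM in the ventral libraries (log2 fold change -0.07 ± 0.18 (SE), adjusted p = 0.794).

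**Figure D5:**
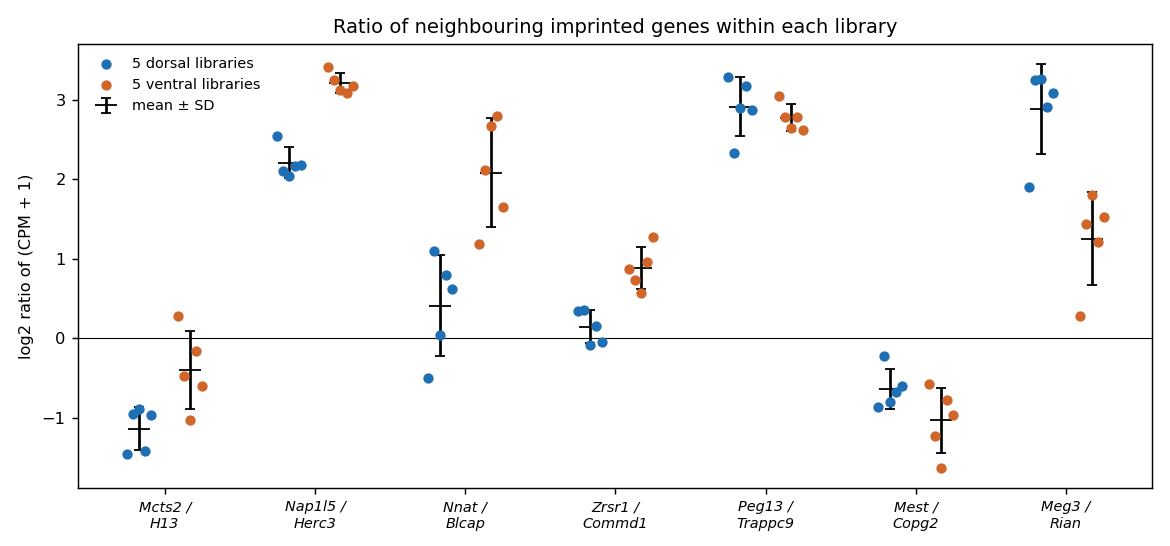
Log2 ratio of CPM plus 1 between neighbouring imprinted genes within each library, for the 5 nested pairs, Mest over Copg2 and Meg3 over Rian, with mean and SD of 5 libraries per group. Nap1l5 over Herc3, Nnat over Blcap and Zrsr1 over Commd1 are higher in all ventral libraries, Meg3 over Rian is higher in all dorsal libraries, and the other 3 ratios overlap.

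The promoters of the called ventral genes give a view of sequence that the counts did not use. Imprinted genes are known to be bound by ZFP57, a zinc finger protein that protects imprinted methylation at the motif TGCCGC when its CpG is methylated. RefSeq windows of 300 bases, from 250 before to 50 after the start, were found for 36 of the 44 genes (54 windows, some of which overlap or are shared between genes). TGCCGC on either strand occurred in 29.6% of these windows and in 11.6% of all 32851 windows, with a median of 13.5 CG dinucleotides against 7. A match is a description of the letters in the window, and this window need not be the methylated control region. Among the called genes, Nap1l5, Nnat, Grb10, Meg3 and Zim1 had a window with the motif, and Grb10 and Meg3 also had a window without it. Ndn, Snhg14 and Kcnq1ot1 had windows without the motif, and Impact and Rtl1 had no window. Genes without a call held it too, such as Zdbf2 with 3 matches in a window. Below are the windows with the motif of Nap1l5, Nnat and Grb10, which are paternally expressed and ventral-enriched. They are on the strand of the gene, 5′ to 3′, in GRCm38.p6, with matches to TGCCGC or its reverse complement GCGGCA in capitals.
Nap1l5 (chr6:58907077-58907376, reverse strand): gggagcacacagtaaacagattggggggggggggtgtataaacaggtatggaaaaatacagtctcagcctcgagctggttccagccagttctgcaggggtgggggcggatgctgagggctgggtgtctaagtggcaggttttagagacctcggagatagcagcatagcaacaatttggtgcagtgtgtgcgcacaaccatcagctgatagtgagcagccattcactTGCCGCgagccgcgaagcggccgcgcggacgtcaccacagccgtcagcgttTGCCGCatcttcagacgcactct
Nnat (chr2:157559828-157560127, forward strand): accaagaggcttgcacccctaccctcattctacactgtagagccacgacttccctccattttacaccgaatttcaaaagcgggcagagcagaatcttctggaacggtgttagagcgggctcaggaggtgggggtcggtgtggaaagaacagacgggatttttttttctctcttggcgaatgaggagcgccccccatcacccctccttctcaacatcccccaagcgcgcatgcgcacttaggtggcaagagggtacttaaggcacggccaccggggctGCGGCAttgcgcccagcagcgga
Grb10 (chr11:12037371-12037670, reverse strand): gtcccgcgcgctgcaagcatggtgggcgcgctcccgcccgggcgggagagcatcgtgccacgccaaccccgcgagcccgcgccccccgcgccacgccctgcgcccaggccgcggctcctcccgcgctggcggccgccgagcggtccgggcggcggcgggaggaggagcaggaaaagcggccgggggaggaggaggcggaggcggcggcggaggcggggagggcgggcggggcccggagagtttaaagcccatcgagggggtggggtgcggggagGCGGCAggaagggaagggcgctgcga
The Nap1l5 window holds 2 matches, and the other windows printed hold 1 each. Grb10 has another RefSeq window, at chr11:12027922-12028221, without a match. Which Grb10 start was used in these libraries was not examined, so the window printed need not be that of its paternal transcript.

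In the Peg3 domain on chromosome 7, the maternally expressed gene differed and the paternally expressed neighbours did not pass the test. Zim1 (ENSMUSG00000002266, GRCm38 chr7:6671269-6696450, reverse strand) encodes a zinc finger protein. It measured 13.7, 5.85, 4.84, 9.79 and 6.99 CPM in the dorsal libraries and 17.9, 20.6, 24.9, 17.3 and 19.4 CPM in the ventral libraries. All ventral libraries were above all dorsal libraries, a 2.47-fold difference (log2 fold change -1.30 ± 0.24 (SE), adjusted p = 0.00143). Peg3, a zinc finger protein known for its part in maternal care and growth, measured 471, 450.4, 468, 477 and 489 CPM in the dorsal libraries and 494, 462, 396, 378 and 361 CPM in the ventral libraries with overlapping groups (log2 fold change 0.17 ± 0.098 (SE), adjusted p = 0.187). Usp29, a ubiquitin protease transcribed in the other direction, ranged from 65.7 to 108 CPM (log2 fold change 0.20 ± 0.13 (SE), adjusted p = 0.256). The log2 ratio of Peg3 to Usp29 was 2.44 in both groups (SD 0.27 in Dorsal and 0.15 in Ventral).

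The remaining called genes were Impact and Grb10. Impact (ENSMUSG00000024423), an inhibitor of the translational stress kinase GCN2 that is abundant in neurons, measured 442, 261, 259, 314 and 288 CPM in the dorsal libraries and 527, 609, 413, 469 and 426 CPM in the ventral libraries. Of the dorsal libraries, replicate 1 alone reached into the ventral range, a 1.56-fold difference of the groups (log2 fold change -0.65 ± 0.15 (SE), adjusted p = 0.00608). Its call was lost without dorsal replicate 3 (log2 fold change -0.58) and without ventral replicate 2 (-0.56). Grb10 (ENSMUSG00000020176, GRCm38 chr11:11930508-12038683, reverse strand), an adaptor that restrains insulin and growth factor receptor signalling, is expressed from the paternal allele in neurons and from the maternal allele in most other tissues. It measured 37.6, 57.2, 36.1, 34.1 and 32.5 CPM in the dorsal libraries and 55.8, 73.1, 59.9, 57.4 and 61.8 CPM in the ventral libraries. Dorsal replicate 2 stood far above the other 4 dorsal libraries and inside the ventral range (log2 fold change -0.63 ± 0.16 (SE), adjusted p = 0.00883, a 1.55-fold difference). Its call was lost without dorsal replicate 4 (-0.57), dorsal replicate 5 (-0.56) or ventral replicate 2 (-0.57). Ddc, the aromatic amino acid decarboxylase next to Grb10, ranged from 0.666 to 7.51 CPM and was not called (log2 fold change 0.53 ± 0.42 (SE), adjusted p = 0.347).

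Zdbf2, a paternally expressed zinc finger gene, was measured at 143, 146, 138, 138 and 139 CPM in the dorsal libraries and 101, 135, 83.6, 80.5 and 88.0 CPM in the ventral libraries. Its dorsal libraries differed by little and lay above all ventral ones, and its log2 ratio of 0.52 missed the fold threshold (log2 fold change 0.53 ± 0.13 (SE), adjusted p = 0.00822). The genes that follow were not called, and their groups overlapped. Among signalling genes, Rasgrf1, a Ras exchange factor of synapses, ranged from 274 to 359 CPM (log2 fold change 0.088 ± 0.093 (SE), adjusted p = 0.489), Igf2r, the scavenger receptor of Igf2, from 9.86 to 34.3 CPM (log2 fold change 0.44 ± 0.29 (SE), adjusted p = 0.251), and Gnas, the stimulatory G protein alpha subunit, from 44.8 to 132 CPM (log2 fold change -0.46 ± 0.19 (SE), adjusted p = 0.0715). Inpp5f, a phosphoinositide phosphatase, ranged from 215 to 310 CPM (log2 fold change 0.10 ± 0.10 (SE), adjusted p = 0.462). The zinc finger factor Plagl1 spread widely in both groups, from 19.2 to 68.0 CPM (log2 fold change 0.14 ± 0.32 (SE), adjusted p = 0.760).

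In the Peg10 domain, the retrotransposon-derived Peg10 measured 36.5, 57.8, 28.5, 34.3 and 30.3 CPM in the dorsal libraries and 15.8, 75.2, 65.1, 28.2 and 41.3 CPM in the ventral libraries (log2 fold change -0.21 ± 0.34 (SE), adjusted p = 0.658). Ventral replicates 2 and 3 were the highest of all libraries and ventral replicate 1 the lowest, so the spread within Ventral exceeded the difference of the means. Sgce, the epsilon-sarcoglycan of myoclonus dystonia, ranged from 4.31 to 15.3 CPM (log2 fold change -0.13 ± 0.25 (SE), adjusted p = 0.730). Asb4, a ubiquitin ligase adaptor, had 12, 0, 1, 5 and 14 counts in the dorsal and 0, 0, 1, 0 and 0 counts in the ventral libraries and was not called (adjusted p = 0.0671). Mest, a hydrolase family member, ranged from 13.1 to 32.0 CPM (log2 fold change 0.24 ± 0.19 (SE), adjusted p = 0.327) and its neighbour Copg2, a coat protein subunit, from 34.4 to 57.2 CPM (log2 fold change -0.14 ± 0.15 (SE), adjusted p = 0.503). Their ratio overlapped, and Copg2 and Mest share 17.8% and 23.1% of their exonic bases with each other on opposite strands.

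Summed by the allele known to be expressed, the lists differed in opposite directions, and each pair of sums overlapped once the most abundant gene was left out. The 25 paternally expressed genes summed to 3515 ± 251 CPM in Dorsal and 4591 ± 567 CPM in Ventral, with no overlap (SD, n = 5). Without Nap1l5 the sums were 2661 ± 130 and 2904 ± 239 CPM and overlapped. The 16 maternally expressed genes summed to 2735 ± 701 CPM in Dorsal and 1394 ± 279 CPM in Ventral, with no overlap. Without Meg3 they were 953 ± 72.2 and 893 ± 73.4 CPM and overlapped. The 3 genes of mixed expression summed to 334 ± 41.3 and 338 ± 26.0 CPM.

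A list of 40 other genes reported as imprinted in some mouse tissue, 28 of them tested, had 5 dorsal-enriched (17.9%) and 4 ventral-enriched genes (14.3%), beside 15.7% and 9.85% of all genes. The dorsal ones were Ano1, a chloride channel (5.41 ± 2.74 against 0.0940 ± 0.0449 CPM, log2 fold change 5.73 ± 0.68 (SE), adjusted p = 5.85e-05), Pon3, a lactonase (3.40 ± 2.58 against 0.158 ± 0.163 CPM, log2 fold change 4.09 ± 0.71 (SE), adjusted p = 4.70e-04), the phosphatase regulator Phactr2 (146 ± 51.2 against 56.8 ± 12.2 CPM, log2 fold change 1.37 ± 0.22 (SE), adjusted p = 5.68e-04) and the potassium channel genes Kcnk9 (70.8 ± 9.16 against 35.5 ± 4.67 CPM, log2 fold change 0.99 ± 0.13 (SE), adjusted p = 1.88e-04) and Kcnk2 (0.74, adjusted p = 0.00691). Kcnk9 lies in the same domain as Peg13 and Trappc9, neither of which was called. The ventral ones were Dio3, the actin nucleator Cobl (7.72 ± 1.66 against 40.1 ± 12.4 CPM, log2 fold change -2.40 ± 0.25 (SE), adjusted p = 3.08e-05), the proteoglycan gene Dcn (4.39 ± 2.22 against 15.0 ± 2.38 CPM, log2 fold change -1.78 ± 0.29 (SE), adjusted p = 6.28e-04) and the transcription factor gene Klf14 (0.137 ± 0.100 against 2.31 ± 2.16 CPM, log2 fold change -3.88 ± 0.93 (SE), adjusted p = 0.00488). Ano1 and Pon3 passed the filter through Dorsal alone, and Dio3 and Klf14 through Ventral alone. The large fold changes and the calls of these genes are therefore a description only, and the shares above include them.

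Of 26 genes for DNA methylation and the upkeep of imprints, 22 were tested and 3 were dorsal-enriched (13.6%, where 15.7% of all genes tested were). An adjusted p below 0.05, whatever the fold, was reached by 9 of the 22, beside 33.6% of all genes tested. The 3 called genes were Tet3 (99.7 ± 10.4 against 41.0 ± 10.8 CPM, log2 fold change 1.30 ± 0.17 (SE), adjusted p = 1.38e-04), Tet2 (122 ± 10.7 against 53.7 ± 10.2 CPM, log2 fold change 1.18 ± 0.13 (SE), adjusted p = 5.60e-05) and Tet1 (52.0 ± 12.1 against 31.5 ± 9.56 CPM, log2 fold change 0.72 ± 0.21 (SE), adjusted p = 0.0164), which encode the enzymes that oxidise 5-methylcytosine and so act opposite to upkeep. Tet1, Tet2 and Tet3 are long, with 15457, 16870 and 16695 bases of exon. The GC and length correction, which turned the sign of the long Rian, Ube3a and Snhg14, is not reported here for these genes. The groups did not overlap for 6 of the 22 genes (27.3%, where 18.2% of all genes tested did not overlap), 5 higher in Dorsal and 1 higher in Ventral. On the dorsal side were Tet2, Tet3, Arid4a (adjusted p = 0.00304), Arid4b (adjusted p = 0.0132) and Ehmt1 (adjusted p = 0.0430), of which Tet2 and Tet3 alone were called. On the ventral side was the maintenance methyltransferase Dnmt1 (22.9 ± 4.53 against 31.7 ± 2.76 CPM). Its log2 fold change of -0.47 (adjusted p = 0.0326) was below the fold threshold. Zfp57 was near the detection limit (1.77 ± 0.884 against 1.29 ± 0.572 CPM, adjusted p = 0.386).

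Of the X-linked source genes and relatives of the imprinted retrogenes, 4 were tested. All 4 had a negative log2 fold change, where 46.7% of all protein-coding genes tested had a positive one. Of the 4, the Nap1l5 relative Nap1l3 alone was called ventral-enriched, as were 10.3% of all protein-coding genes (118 ± 14.4 against 189 ± 26.7 CPM, log2 fold change -0.68 ± 0.12 (SE), adjusted p = 0.00118). A list of 4 is too short to set against these shares. Nap1l2 (-0.41, adjusted p = 0.0215) and Zrsr2 (-0.45, adjusted p = 0.0195) had an adjusted p below 0.05 and missed the fold threshold, and Mcts1 had -0.19 (adjusted p = 0.222). How reads that match both a retrogene and its source gene were handled in the counting was not examined.

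Markers of the remaining cell types gave the following sums in Dorsal and Ventral. Granule cell markers summed to 859 to 1048 and 780 to 1051 CPM (2 of 6 dorsal-enriched), CA3 pyramidal markers to 943 to 1194 and 936 to 1037 CPM (1 of 6 dorsal-enriched), and CA1 pyramidal markers to 178 to 263 and 265 to 394 CPM (3 of 6 ventral-enriched). Subiculum markers summed to 274 to 314 and 277 to 401 CPM (2 of 7 dorsal-enriched, 1 ventral-enriched), choroid plexus and meningeal markers to 123 to 949 and 181 to 419 CPM (4 of 8 tested dorsal-enriched), microglial markers to 24.8 to 27.9 and 15.6 to 35.9 CPM (1 of 7 dorsal-enriched) and endothelial markers to 12.2 to 46.6 and 11.8 to 57.1 CPM (6 tested). Beside these counts, 15.7% of all genes tested were dorsal-enriched and 9.85% ventral-enriched. The dorsal counts of the CA3 pyramidal list (16.7%) and the microglial list (14.3%) are near that dorsal share. The part of these cell types in the differences of the imprinted genes was not tested.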

How the data were processed

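TRAP precipitates of 5 dorsal and 5 ventral hippocampal pools were measured by RNA-seq. The authors made cDNA with the Ovation RNA-Seq V2 kit, made TruSeq libraries, sequenced paired ends of 50 bp, and, per the labels' processing notes, aligned them to GRCm38 with STAR 2.5.2b and counted read pairs per gene with HTSeq 0.7.2. The authors deposited raw counts by Ensembl gene, 1 file per library, with no normalization. The annotation release and the strand setting of the counting are not given in the sources used here, and the kits do not mark strand.

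Groups and replicate numbers came from the sample labels. Counts were tested with edgeR 4.0.16 in R 4.3.3 (TMM, CPM above 1 in at least 2 libraries, quasi-likelihood test without a block, Benjamini-Hochberg adjustment over all genes tested). Calls needed an adjusted p below 0.05 and group means of CPM, with 1 added, that differed by over 0.58 on the log2 scale. The SE comes from the fold change and its F statistic. CPM use TMM-scaled library sizes, and CPM per kb divides by exonic length. Rows that name no gene (no feature, ambiguous and the like) stayed out of library sizes, and no feature took 11.6 to 33.9% of read pairs. Names and coordinates came from GENCODE M21 (GRCm38), which matched 54809 of 54838 identifiers, and promoters and microRNAs from RefSeq.

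All 44 genes are accounted for, with full values for called genes, the 6 highest by mean CPM and the nested pairs. The members and lists were chosen with earlier results of these data known, and the p-values measure the spread between pools. Depth allows 0.142 to 0.282 CPM at 3 counts, counting error only. No library was a duplicate, as chi-square over its degrees of freedom between libraries of a group was 4.36 to 45.1. Alternatives were other scalings, filters, tests (DESeq2 1.42.0, edgeR likelihood ratio) and thresholds, the replicate number as a block, a GC and length correction (mgcv 1.9.3), the share of read pairs on no gene as covariate, and each library left out. Scaling without Meg3 and the dispersions of edgeR 3 were added after seeing the data. The tests were tested on simulated data. The authors' fold changes were not used, and the imaging and PCR data were not analysed here.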

Additional observations from a re-analysis of the deposited data

Results flagged for a closer look

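In 9 of the 80 sets of 5 libraries examined (40 genes in each group), the highest library stood far from the other 4 by Dixon's criterion. Its chance rate of about 1 in 20 sets holds for normally distributed values. The CPM were not checked for this, so the 2 rates cannot be compared. Ventral replicate 2 gave 4.05 CPM of Dlk1, where the next ventral library had 0.949 CPM, and 18.8 CPM of Magel2, where the next had 1.27 CPM. Ventral replicate 3 gave 190 CPM of Snhg14 (next 119 CPM) and 0.0844 CPM of Asb4, which is 1 count where the others had 0. Ventral replicate 1 gave 132 CPM of Gnas (next 83.3 CPM). Dorsal replicate 2 gave 57.8 CPM of Peg10 (next 36.5 CPM) and 57.2 CPM of Grb10 (next 37.6 CPM). Dorsal replicate 1 gave 172 CPM of Ndn (next 143 CPM), and dorsal replicate 3 gave 18.5 CPM of H13 (next 14.5 CPM). The source of these high values was not tested.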

How the results depend on the processing

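Of 996 values for single genes under the alternatives, 931 kept their direction and their side of the threshold, 21 lost the call, 8 gained a call and 36 changed sign, of which 2 were of a called gene. The GC and length correction gave log2 fold changes of -0.50 for Rian, -0.019 for Peg3, -0.084 for Usp29, -0.45 for Snhg14, -0.53 for Ube3a, -0.13 for Herc3, -0.025 for Inpp5f and -0.017 for Rasgrf1, and a median over the imprinted genes of -0.11, where the median of all genes moved to -0.071. With the replicate block added to it these were -0.49, -0.0069, -0.090, -0.43, -0.53, -0.12, -0.032 and -0.014, with a median of -0.10 and 2 dorsal-enriched imprinted genes. With the share of read pairs on no gene as covariate, Rian had -0.079, Mirg -0.23, Sgce 0.50, Magel2 -0.16, Snrpn 0.14, Gnas 0.31, Ddc -0.50, Zrsr1 0.22, Airn 0.79 and Cdkn1c 1.39, the median was 0.23, and the calls were 1 dorsal and 1 ventral imprinted gene and 834 dorsal and 339 ventral genes in all, beside 2636 and 1655. At an adjusted p below 0.01 the calls over all genes were 1498 and 897. Leaving out a library gave 4 to 7 dorsal-enriched and 3 to 6 ventral-enriched imprinted genes and a median of 0.013 to 0.11. Without ventral replicate 2 the counts were 7 and 3, since Magel2, H13 and Zdbf2 gained the call and Ndn, Impact and Grb10 fell under the fold threshold, and without ventral replicate 3 the median was 0.013. Small fold changes crossed 0 when a library was left out: Trappc9 (-0.22 to 0.012), Herc3 (-0.027 to 0.095), Sgce (-0.30 to 0.028), Peg10 (-0.45 to 0.039), Peg13 (-0.048 to 0.076) and Plagl1 (-0.011 to 0.36). With no filter on low counts the median of all genes was 0.11. The cause of these changes was not tested. The replicate numbers were not treated as pairs, since samples of the same number correlated at -0.032 to 0.069 and 3 of 10 libraries were closest to their own number. These correlations concern the numbers only. The groups share mice, but which pools share them is not labelled, so a pairing by animal could not be fitted. With the replicate block the imprinted genes gave 4 dorsal and 6 ventral calls, as without it. Depth limits Rtl1, Mirg, Dlk1, Asb4, Airn and Cdkn1c, and 3 counts correspond to 0.142 to 0.282 CPM.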
